A study of Mus musculus with 16 samples.

Results

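The mouse Hox genes lie in 4 clusters, A to D, on chromosomes 6, 11, 15 and 2, and open chromatin at 38 listed Hox genes was examined here. Peaks of all libraries that overlapped were merged, regions called in at least 2 of the 16 libraries were kept, and a region belonged to a Hox gene when that gene was the nearest protein-coding gene within 100 kb of its median summit. This gave 38 Hox regions of 33773 regions in all (0.113%), of which 12 were in the Hoxa cluster, 21 in Hoxb, 3 in Hoxc and 2 in Hoxd. Accessibility was measured by ATAC-seq, in which a transposase cuts open DNA, by the Omni-ATAC protocol on 10000 sorted haematopoietic stem cells (HSCs) per library.

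The libraries formed 4 groups of 4, all from male B6 mice. Old post libraries held HSCs recovered 3 months after transplantation of 1000 HSCs from a 24-month-old donor, and young post libraries held HSCs recovered in the same way from young donors aged 8 to 12 weeks. Both were taken from the pooled marrow of 5 lethally irradiated young BJ recipients, which also received 300000 Sca-1 depleted BJ helper marrow cells. Old pre and young pre libraries held HSCs of the same donors before transplantation, from 1 mouse per old replicate and from a pool of 3 to 4 mice per young replicate. The labels name no sort on a donor marker, so HSCs of donor, recipient and helper origin cannot be told apart in the post libraries.

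Hox genes encode homeodomain transcription factors whose order along the chromosome follows the order in which they act along the body axis of the embryo. Blood stem cells mainly use genes of the A and B clusters: Hoxa9 and Hoxa10 promote self-renewal and are raised in many leukaemias, Hoxb4 expands HSCs when overexpressed, and Hoxb5 has been used as a marker of long-term HSCs. Trithorax proteins such as Kmt2a keep these genes active, Polycomb proteins silence the unused ones, and Pbx and Meis proteins bind DNA together with Hox proteins.

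The peak lists differed in length and were not normalised between libraries, so the measurement compared is whether a region was called. They held 5711 (old pre 4) to 32557 (young post 1) peaks, and 3 lists were short: 14030 peaks in old post 4, 5711 in old pre 4 and 9636 in young pre 4. Reads per library are unknown here, so an uncalled region is not shown to be closed, and in bulk cells a region open in few cells and one weakly open in many cannot be told apart. Transposition was done on 6 days, with post and pre libraries never on the same day, so stage and day cannot be told apart, whereas days 2, 5 and 6 each held both ages. All 10 listed HSC and progenitor genes had regions (95 in all). Of the markers of other cells, 2 of 5 B cell genes, 1 of 5 T cell genes, 3 of 7 granulocyte and monocyte genes, 3 of 5 erythroid genes and 5 of 6 endothelial and stromal genes had at least 1 region, and Cd3e, Mpo, Elane and Hba-a1 had none. The mean share of granulocyte and monocyte regions called was 57.1% in old post, 92.9% in young post, 35.7% in old pre and 32.1% in young pre libraries, and that of HSC and progenitor regions 58.7% in old post, 84.7% in young post, 56.3% in old pre and 53.7% in young pre libraries. The granulocyte and monocyte share rests on 7 regions of 3 genes. Of all regions, old post libraries called 38.2% to 86.1% and young post libraries 86.0% to 90.7%. Old pre libraries called 15.8% to 83.6% and young pre libraries 26.7% to 79.3%. By the series design the replicates of a group come from different donors.

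The promoters below are those of the most often called window and of the window with the largest difference in calls between groups, at most 2 per cluster, and show the DNA on which the calls rest. Each is a RefSeq window of 300 bases (GRCm38.p6), from 250 bases before to 50 after the annotated start, printed 5′ to 3′ on the gene's strand. Hoxa3 (chr6:52213018-52213317, minus strand) was called in all 16 libraries and Hoxa6 (chr6:52208623-52208922, minus strand) in 9. Hoxb4 (chr11:96318017-96318316, plus strand) was called in 12 and the long non-coding RNA Hoxb3os (chr11:96353345-96353644, minus strand) in 7. Hoxd3os1 (chr2:74716081-74716380, minus strand), a long non-coding RNA inside Hoxd3, was called in 2. Capitals mark matches, on either strand, to GATAA (GATA factors), CGGAA or AGGAAG (ETS factors), TGTGGT (RUNX factors), CCCTC (a part of the CTCF motif), TGATTNAT (Pbx with Hox), TGACAG (Meis) and TAATTA (homeodomain). No window of the Hoxc cluster was called in any library, and none is printed.
Hoxa3: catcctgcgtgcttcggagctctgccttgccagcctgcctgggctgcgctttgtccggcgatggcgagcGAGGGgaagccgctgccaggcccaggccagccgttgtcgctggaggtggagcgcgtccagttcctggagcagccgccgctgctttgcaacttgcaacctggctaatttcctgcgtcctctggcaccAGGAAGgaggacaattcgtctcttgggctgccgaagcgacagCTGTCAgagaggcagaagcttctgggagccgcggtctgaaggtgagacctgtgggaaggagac
Hoxa6: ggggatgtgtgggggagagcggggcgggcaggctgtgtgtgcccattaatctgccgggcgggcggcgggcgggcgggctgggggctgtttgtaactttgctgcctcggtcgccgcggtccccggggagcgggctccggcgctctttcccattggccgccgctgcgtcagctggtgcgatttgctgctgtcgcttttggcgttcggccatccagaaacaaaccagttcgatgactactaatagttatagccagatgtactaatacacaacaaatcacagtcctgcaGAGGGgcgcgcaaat
Hoxb4: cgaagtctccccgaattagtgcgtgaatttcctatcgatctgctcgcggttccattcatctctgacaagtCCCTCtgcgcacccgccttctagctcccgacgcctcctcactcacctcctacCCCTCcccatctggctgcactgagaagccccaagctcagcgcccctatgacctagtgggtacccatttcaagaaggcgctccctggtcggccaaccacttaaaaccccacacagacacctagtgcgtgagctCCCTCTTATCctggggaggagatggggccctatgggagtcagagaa
Hoxb3os: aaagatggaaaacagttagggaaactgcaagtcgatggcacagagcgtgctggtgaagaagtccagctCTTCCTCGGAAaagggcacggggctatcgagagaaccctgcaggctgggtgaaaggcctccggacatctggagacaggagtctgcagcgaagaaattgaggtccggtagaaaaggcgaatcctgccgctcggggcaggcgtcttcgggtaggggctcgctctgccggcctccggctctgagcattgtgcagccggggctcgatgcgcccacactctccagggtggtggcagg
Hoxd3os1: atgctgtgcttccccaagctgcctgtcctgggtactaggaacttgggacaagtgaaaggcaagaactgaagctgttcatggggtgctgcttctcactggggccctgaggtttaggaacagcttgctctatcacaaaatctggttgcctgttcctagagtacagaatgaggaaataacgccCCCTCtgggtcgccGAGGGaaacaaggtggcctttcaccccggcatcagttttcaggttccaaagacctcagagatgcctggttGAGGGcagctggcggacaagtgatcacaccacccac

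The Hoxa3 window held 1 ETS, 1 CTCF-part and 1 Meis match, with the Meis match at position -13 from the annotated start. The Hoxb4 window held 3 CTCF-part matches, the last of them directly beside a GATA match just after the start. The Hoxb3os window held 2 ETS matches close together, and the Hoxd3os1 window 3 CTCF-part matches. Such letters are common: among 32619 promoter windows of all genes, 25.4% held the GATA motif, 54.9% the ETS motifs, 16.6% the RUNX motif, 66.3% the CTCF part, 3.24% the Pbx-Hox motif, 18.9% the Meis motif and 5.25% the homeodomain motif. Among the 24 windows found for 22 of the 38 Hox genes, 7 held the GATA motif, 11 the ETS motifs, 1 the RUNX motif, 17 the CTCF part, and 2 each the Pbx-Hox, Meis and homeodomain motifs. A match is a description of the letters and not a bound site.

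Hox clusters also carry microRNA genes, whose mature sequences are given with the seed (bases 2 to 8) in capitals because they form pairs across the clusters. The miR-196 family, known to cleave Hoxb8 transcripts, shares 1 seed, and the miR-10 family shares another.
miR-196b-5p: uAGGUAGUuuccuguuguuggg
miR-196a-5p: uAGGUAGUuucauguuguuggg
miR-10a-5p: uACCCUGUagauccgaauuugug
miR-10b-5p: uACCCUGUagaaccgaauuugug

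The Mir196b hairpin (chr6:52230081-52230165) lay inside a region between Hoxa9 and Hoxa10 that was called in 14 libraries. Mir10a (chr11:96317165-96317274) lay 826 bp from the region at the start of Hoxb4, also called in 14. Mir196a-1 in Hoxb was 3316 bp from its nearest Hox region, which 3 libraries called. Mir196a-2 in Hoxc was 2906 bp from a region called in 10, and Mir10b in Hoxd was 9848 bp from a region called in 8. The nearest Hox regions, which lay at unlike distances from the hairpins, were thus called in 14 libraries down to 3 for miR-196 and in 14 to 8 for miR-10. These counts describe the regions and not the microRNA genes.

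Called chromatin was concentrated in the Hoxa and Hoxb clusters. Regions covered 22.8 kb of the 98.5 kb from the first to the last listed Hoxa gene (23.2%) and 22.9 kb of 173.9 kb in Hoxb (13.2%). In Hoxc they covered 2.2 kb of 115.7 kb (1.94%) and in Hoxd 1.1 kb of 96.9 kb (1.15%). Of the genes, 6 of 10 Hoxa, 8 of 10 Hoxb, 3 of 9 Hoxc and 2 of 9 Hoxd genes were the nearest gene of at least 1 region, 19 of 38 in all. By paralogue number, every listed gene of group 3 (Hoxa3, Hoxb3, Hoxd3) had a region, 3 of 4 genes of group 9 had one (Hoxa9, Hoxb9, Hoxc9), and neither gene of group 12 did. By position, the median number of calls was 9 libraries for 15 regions of paralogues 1 to 4, 12 for 10 regions of paralogues 5 to 8, and 10 for 13 regions of paralogues 9 to 13. These counts by gene depend on the nearest-gene rule, since the long RefSeq spans of Hoxa3 and Hoxb3 cover other Hox genes. Regions with summits 253 bp from an end of Hoxa4 and 317 bp from an end of Hoxa6 were counted for Hoxa3. Hoxa4 and Hoxa6 thus count as genes without a region. Hoxb7 does too, although a region counted for Hoxb8 and called in 12 libraries overlaps it.

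**Figure D1:**
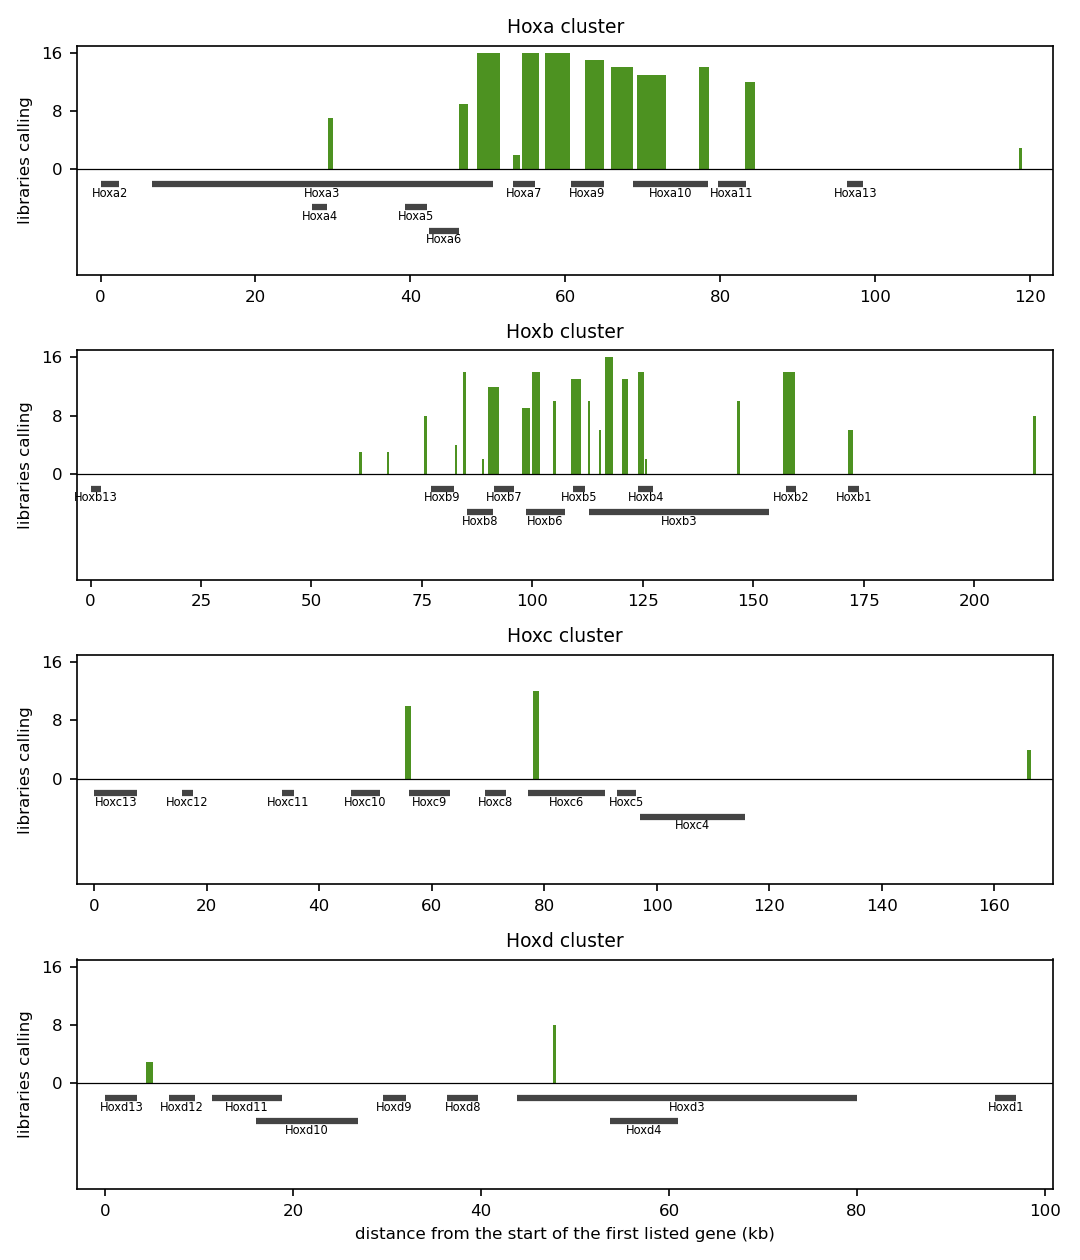
Map of the Hox clusters, with distance from the start of the first listed gene (kb) on the x axis and the number of libraries calling each region (of 16) on the y axis; bars are regions at their true width (drawn at least 0.35 kb wide) and grey lines are RefSeq gene spans. The tallest bars, at 16 libraries, stand between Hoxa6 and Hoxa9 and inside Hoxb3, and only 3 and 2 bars stand in the Hoxc and Hoxd panels.

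Long stretches held no region. The longest in Hoxa ran 29.4 kb from the low-coordinate end of Hoxa2 (chr6:52162417-52191839) and contained all of Hoxa2 and Hoxa4. In Hoxb it ran 60.8 kb from Hoxb13 towards Hoxb9 (chr11:96194316-96255113). In Hoxc it ran 55.2 kb over Hoxc13, Hoxc12, Hoxc11 and Hoxc10 (chr15:102921131-102976339), and in Hoxd 48.9 kb over Hoxd4 and Hoxd1 (chr2:74716223-74765142). Posterior Hox genes such as Hoxb13, Hoxc13 and Hoxd13 pattern the tail end and limbs of the embryo. Of these, Hoxb13 and Hoxc13 lay in the stretches above and Hoxd13 did not.

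Set beside all regions, Hox regions were called somewhat less often and were more often wide. A Hox region was called in a median of 10 libraries, against 12 for all regions, with medians of 13.5 in Hoxa, 10 in Hoxb, 10 in Hoxc and 5.5 in Hoxd. All 16 libraries called 4 of the 38 Hox regions (10.5%), against 15.6% of all regions, and only 2 or 3 libraries called 7 (18.4%), against 10.3%. At least 2000 bp were spanned by 9 Hox regions (23.7%), 6 of them in Hoxa, against 7.72% of all regions. Ends of genes, within 1 kb of a gene's start or end, held 18 Hox regions (47.4%), against 32.9% of all. These shares describe the lists and were not tested.

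In the Hoxa cluster the often-called regions were closely spaced from the annotated start of Hoxa3, which lies between Hoxa6 and Hoxa7, to Hoxa11. The regions are labelled below by assigned gene and a running number. Distances from a region to a gene are from its median summit. Hoxa3 region 3 (chr6:52210962-52214045, 3084 bp) lay over the start of Hoxa3 and was called in 16 of 16 libraries. Hoxa7 region 5 (chr6:52216816-52219000), over the start of Hoxa7, and Hoxa9 region 6 (chr6:52219814-52223072), between Hoxa7 and Hoxa9 with its summit 1206 bp from the 3′ end of Hoxa9, were also called in all 16. Within these regions the called length varied with the library: Hoxa3 region 3 was covered over 811 to 3084 bp (median 2713.5) and Hoxa9 region 6 over 717 to 3259 bp (median 2937).

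Neighbouring Hoxa regions were missing from the shortest lists. Hoxa9 region 7 (chr6:52224955-52227384), over the Hoxa9 gene body and start, was missing in old pre 4 alone. Hoxa10 region 8 (chr6:52228329-52231169), which holds Mir196b, and Hoxa10 region 10 (chr6:52239659-52241021), over the distal Hoxa10 start, were each missing in old pre 4 and young pre 4. Hoxa10 region 9 (chr6:52231724-52235431), over the inner Hoxa10 start and the widest Hox region at 3708 bp, was missing in these and in old post 4. Hoxa11 region 11 (chr6:52245681-52246970), at the start of Hoxa11, a gene of limb and kidney development, was called in 3 of 4 old post, 4 of 4 young post, 2 of 4 old pre and 3 of 4 young pre libraries.

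The remaining Hoxa regions were called in some long lists and not in others. Hoxa3 region 1 (chr6:52191840-52192433), inside the long Hoxa3 span and 253 bp from the high-coordinate end of Hoxa4, which is its 5′ end, was called in 3 of 4 old post, 3 of 4 young post, 0 of 4 old pre and 1 of 4 young pre libraries. Hoxa3 region 2 (chr6:52208637-52209836), at the start of Hoxa6, was called in old post 3, in all 4 young post libraries, in old pre 2 and in young pre 1 to 3. Hoxa13 region 12 (chr6:52280997-52281434), 20364 bp beyond Hoxa13, was called in old pre 1, old pre 2 and young pre 1 and in no post library. Hoxa7 region 4 (chr6:52215717-52216579), at the 3′ end of Hoxa7, was called in old pre 2 and young pre 1, also in no post library. Regions called in pre libraries alone made up 2 of 38 Hox regions (5.26%), against 2.71% of all regions.

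**Figure D2:**
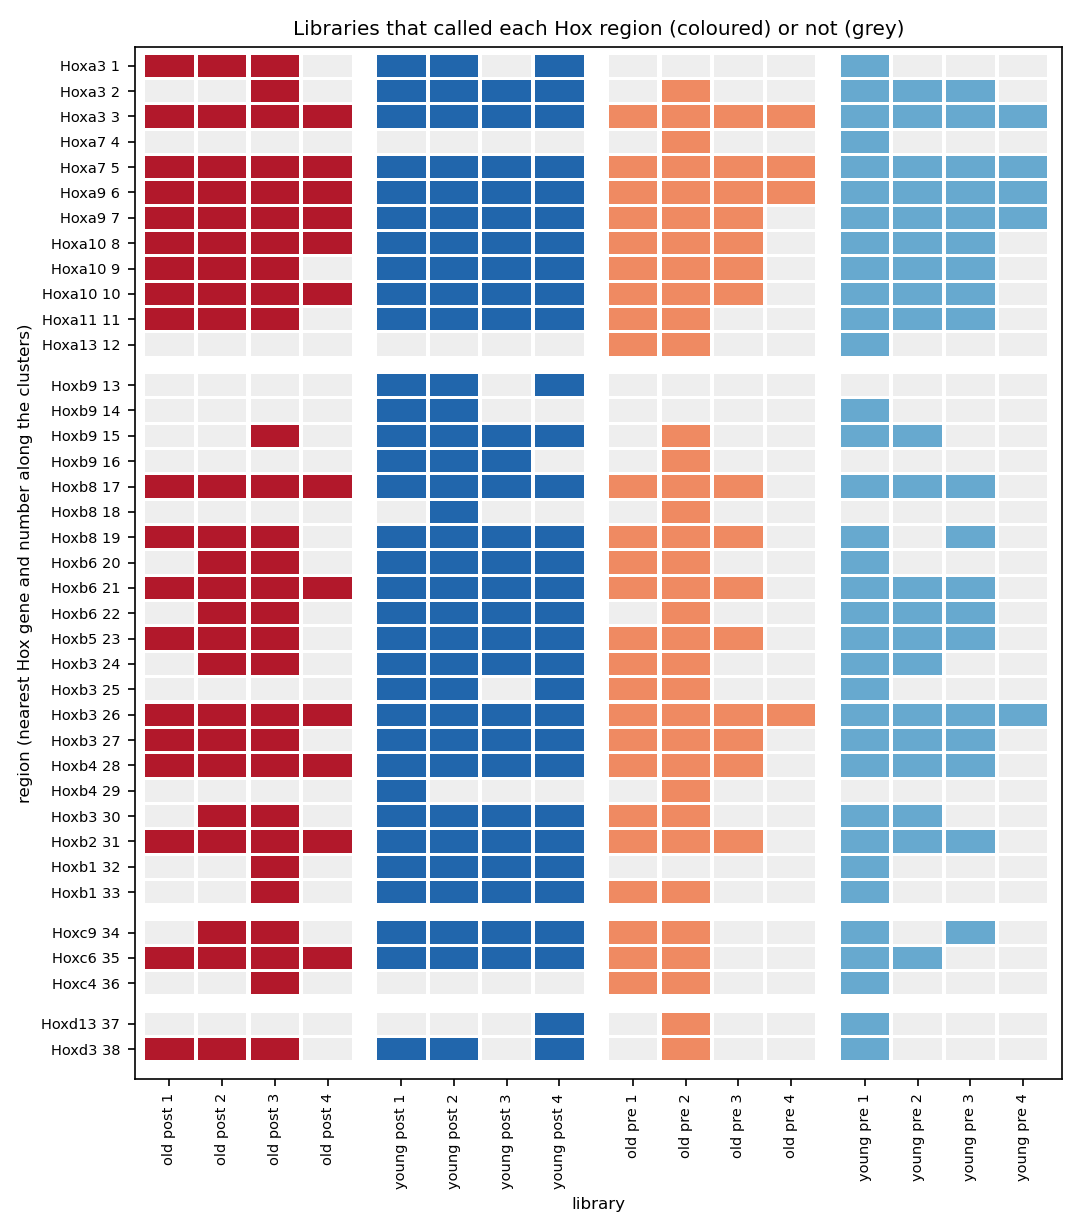
Calls of the 38 Hox regions (rows, labelled by assigned gene and running number) in the 16 libraries (columns, grouped as old post, young post, old pre and young pre); coloured cells are called and grey cells are not. Filled rows mark the 4 regions called in all 16 libraries, Hoxa3 3, Hoxa7 5, Hoxa9 6 and Hoxb3 26, and the columns of old pre 4 and young pre 4 hold 4 and 5 called regions.

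In the Hoxb cluster the calls were spread over 21 mostly narrow regions (median width 733 bp, against 1774 bp in Hoxa). A single region, Hoxb3 region 26 (chr11:96310750-96312577), inside Hoxb3 and 4631 bp from its low-coordinate end, was called in all 16 libraries. Another 4 were called in 14 libraries, all but old pre 4 and young pre 4. They were Hoxb8 region 17 (chr11:96278488-96279249), 460 bp before Hoxb8, a gene that keeps myeloid progenitors immature when overexpressed, and Hoxb6 region 21 (chr11:96294177-96296045), inside Hoxb6. The others were Hoxb4 region 28 (chr11:96318100-96319460), over the start of Hoxb4, and Hoxb2 region 31 (chr11:96351058-96353653), over Hoxb2, a hindbrain gene. Hoxb5 region 23 (chr11:96302970-96305313), at Hoxb5, and Hoxb3 region 27 (chr11:96314483-96315848) were called in 13, missing in the 3 short lists.

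Regions of intermediate frequency in Hoxb had most calls in young post libraries, as had most such regions elsewhere. Of regions called in 4 to 12 libraries, 10 of 10 in Hoxb had more calls in young post than in each other group, against 13558 of 15182 over all regions (89.3%). Hoxb1 region 32 (chr11:96365789-96366876), over Hoxb1, which acts in the hindbrain, was called in 1 of 4 old post, 4 of 4 young post, 0 of 4 old pre and 1 of 4 young pre libraries. Hoxb9 region 15 (chr11:96269799-96270429), 1248 bp before Hoxb9, was called in 1 old post, 4 young post, 1 old pre and 2 young pre libraries. Hoxb6 region 22 (chr11:96298911-96299643) was called in 2 old post, 4 young post, 1 old pre and 3 young pre libraries, so in 3 of 8 old and 7 of 8 young. Hoxb1 region 33 (chr11:96407610-96408194), 39643 bp beyond Hoxb1, was called in 1 old post, 4 young post, 2 old pre and 1 young pre library. In each of these regions the young post calls were complete and the other groups were not.

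A further 5 Hoxb regions, given next, were called in 3 or 4 young post libraries. Hoxb6 region 20 (chr11:96292000-96293780) was called in 2 old post, 4 young post, 2 old pre and 1 young pre library. Hoxb8 region 19 (chr11:96284157-96286639) overlaps the high-coordinate end of Hoxb8 and the low-coordinate end of Hoxb7. It was called in 3 old post, 4 young post, 3 old pre and 2 young pre libraries. Hoxb9 region 16 (chr11:96276745-96277284) was called in 0 old post, 3 young post, 1 old pre and 0 young pre libraries, and Hoxb3 region 25 (chr11:96309326-96309816) in 0 old post, 3 young post, 2 old pre and 1 young pre library. Hoxb9 region 13 (chr11:96255114-96255770) was called in 3 young post libraries and nowhere else. Regions called in young post libraries alone made up 1 of 38 Hox regions (2.63%), against 3.32% of all regions. The other 5 Hoxb regions were called in 2 to 10 libraries. Among them, Hoxb3 regions 24 and 30 were each called in 2 old post, 4 young post, 2 old pre and 2 young pre libraries.

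Hoxc held 3 regions, each called in 4 to 12 libraries. Hoxc6 region 35 (chr15:102999037-103000173), inside Hoxc6, was called in 4 of 4 old post, 4 of 4 young post, 2 of 4 old pre and 2 of 4 young pre libraries. Hoxc9 region 34 (chr15:102976340-102977447), which overlaps the low-coordinate end of Hoxc9 with its summit 191 bp before it, was called in 2 old post, 4 young post, 2 old pre and 2 young pre libraries. Hoxc4 region 36 (chr15:103086963-103087599), 50651 bp beyond Hoxc4, was called in old post 3, in no young post library, in old pre 1 and 2 and in young pre 1. The libraries without it thus included the 4 young post lists, which are among the 5 longest. At this distance the nearest-gene rule does not say which gene, if any, the region serves.

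Hoxd held 2 regions. Hoxd3 region 38 (chr2:74715837-74716222), inside Hoxd3, a gene of the neck vertebrae, was called in 3 of 4 old post, 3 of 4 young post, 1 of 4 old pre and 1 of 4 young pre libraries. Hoxd13 region 37 (chr2:74672551-74673276), 1570 bp from Hoxd13, a gene of the digits, was called in young post 4, old pre 2 and young pre 1. Both regions were small, at 386 and 726 bp.

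How large a peak was within its own list gives a second measure that does not set lists against each other. The score the authors deposited for a peak, its area in the peak caller's significance curve, was turned into a percentile of its library's list. Hoxa3 region 3 had the highest median, at the 98.6th percentile (range 69.8 to 99.0), and its place counted from the largest peak ran from 275 to 2358. The 4 libraries had 96.2, 98.0, 99.0 and 83.2 in old post, 98.7, 98.6, 98.7 and 98.4 in young post, 98.6, 98.8, 90.8 and 69.8 in old pre and 98.7, 98.8, 98.6 and 76.6 in young pre. All lists but the 3 short ones and old pre 3 put it at 96.2 or above.

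The median percentile of the others called in at least 14 libraries ran downwards from Hoxa9 region 6 at 95.5, Hoxa10 region 8 at 90.8, Hoxa7 region 5 at 87.8 and Hoxb3 region 26 at 85.9 to Hoxb8 region 17 at 39.6. Hoxb4 region 28, at the start of Hoxb4, stood at 61.6 (11.9 to 70.1). Outside Hoxa and Hoxb the highest medians were lower, at 46.0 for Hoxc6 region 35 and 20.5 for Hoxd13 region 37. Neighbours in this order overlapped in their ranges over libraries. Since lists differ in length, percentiles of different libraries show no change between groups.

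**Figure D3:**
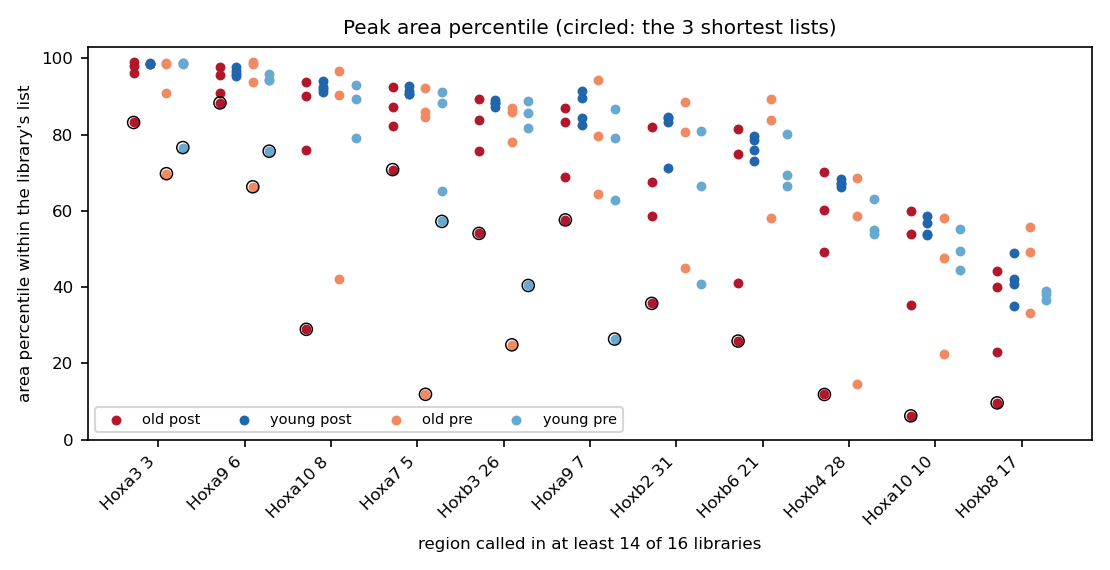
Percentile of peak area within each library's own list (y axis, 100 is the largest peak) for the 11 Hox regions called in at least 14 of 16 libraries (x axis, ordered by median); points are libraries coloured by group, and circles mark the shortest lists, those of old post 4, old pre 4 and young pre 4. Hoxa3 3 stands highest, with a median of 98.6, and the lowest point of every region belongs to a circled library.

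Promoter windows gave a count from the side of the genes. Of the 24 Hox windows, 15 (62.5%) had no peak over them in any library, against 58.5% of 32619 windows of all genes, and 6 (25%) had one in at least 8 libraries, against 37.0%. Hoxa had 10 windows, of which 7 were called at least once: Hoxa3 in 16 libraries, Hoxa7 in 13, the Hoxa10 windows in 11 and 10, Hoxa6 in 9, Hoxa9 in 7 and Hoxa11 in 3. In Hoxb, Hoxb4 was called in 12 and Hoxb1 in 1. All 10 Hoxd windows and the 1 Hoxc window had 0 calls.

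At CG-rich promoters these shares lay further apart. Of windows with at least 20 CG pairs, 3 of 11 Hox windows (27.3%) were called in at least 8 libraries, against 6854 of 8699 windows of all genes (78.8%). The 3 were Hoxa3 with 20 CG pairs, Hoxa10 with 21 and Hoxa6 with 26. The other 8 were called in no library: Hoxa5 with 29 CG pairs, Hoxa13 with 45, and windows of Hoxd13 with 37, Hoxd1 with 29, Hoxd11 with 25, Hoxd10 with 22 and Hoxd9 and Hoxd3 with 20 each. Unused CG-rich Hox promoters are a classic target of Polycomb proteins, a state that was not measured here. The 16 Hox genes without a window in the table include most of Hoxb and Hoxc and are not covered by these counts.

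**Figure D4:**
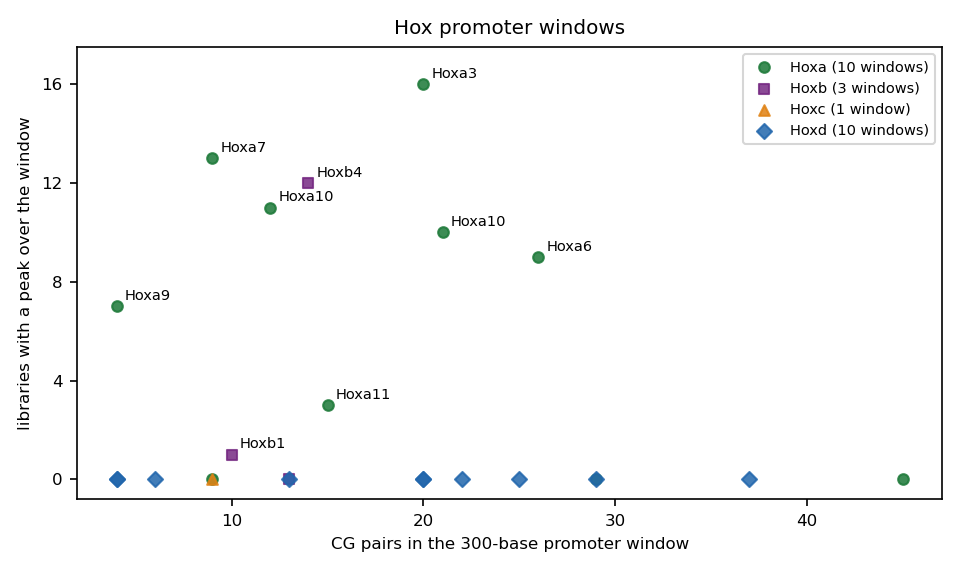
CG pairs in the 300-base promoter window (x axis) and number of libraries with a peak over the window (y axis, of 16) for the 24 Hox promoter windows, marked by cluster. The 10 Hoxd windows all lie at 0, and the windows with 8 or more calls belong to Hoxa and, for Hoxb4, to Hoxb.

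The comparison of old with young asked whether Hox chromatin differed with donor age, and 0 Hox regions passed the threshold in any of its forms. Calls per region were compared by an exact conditional test that weights each library by its odds of a call, two-sided, with Benjamini-Hochberg adjustment over all regions tested and a threshold of 0.05. Before transplantation 14 Hox regions could be tested and 0 passed (0.0% of 9407 regions tested passed), with 0 at an unadjusted p under 0.05 (2.29% of all). After transplantation 7 could be tested and 0 passed (0.465% of 5163 regions passed), again with 0 at an unadjusted p under 0.05 (1.84% of all). Over both stages 17 could be tested and 0 passed (0.27% of 15182 passed), and 1 had an unadjusted p under 0.05 (4.56% of all). Of all regions that passed, 24 of 24 after transplantation and 38 of 41 over both stages were called more often in old libraries. Hoxb9 region 13, called in 3 young post and 0 old post libraries, had an exact p of 0.471 after transplantation. The 0 after transplantation thus says little about regions called more often in young. Fisher's exact test without weights passed 0 Hox regions and also 0 of all regions tested in each form, so its 0 says nothing about the Hox regions.

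The 1 region was Hoxa3 region 2, at the start of Hoxa6, a gene of the trunk skeleton. It was called in 2 of 8 old libraries (old post 3 and old pre 2) and in 7 of 8 young libraries (all but young pre 4), a difference of -62.5 percentage points (exact p = 0.00797, adjusted p = 0.395). The libraries without it included old pre 1 and old post 1 and 2, whose lists held 27328, 23311 and 28523 peaks. These were transposed on day 1 (old pre 1) and day 4 (old post 1 and 2), which held old libraries alone. For them age and day cannot be told apart. The other old libraries without it, old pre 3 and 4 and old post 4, had lists of 17322, 5711 and 14030 peaks. With libraries of the same number and stage as strata the exact p was 0.551, and on the 3 days that held both ages the difference was -75 points with p = 1. Without young pre replicate 3 the exact p was 0.0729.

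Across all Hox regions the direction followed that of the lists. After transplantation 1 Hox region was called more often in old and 21 in young libraries, with 16 equal and a median difference of -25 points, which was also the median over all regions. Over both stages 2 were called more often in old and 20 in young, with a median of -12.5 points for Hox and for all regions. Before transplantation 9 were called more often in old and 8 in young, with a median of 0 in both sets. The share of all regions called was 38.2% to 86.1% in old post libraries and 86.0% to 90.7% in young post libraries, so the shift in Hox calls moved with list length, and its part in the result was not tested.

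The comparison of post with pre asked whether Hox chromatin differed after transplantation and engraftment, and here too 0 Hox regions passed in any form. In young, 9 Hox regions could be tested and 0 passed (0.744% of 8867 regions passed), with 0 at an unadjusted p under 0.05 (3.41% of all). In old, 10 could be tested and 0 passed (0.00963% of 10384 passed), and 1 had an unadjusted p under 0.05 (4.87% of all). Over both ages 17 could be tested and 0 passed (0.402% of 15182 passed), and 2 had an unadjusted p under 0.05 (5.62% of all). Of all regions that passed, 66 of 66 in young, 1 of 1 in old and 60 of 61 over both ages were called more often in pre libraries. The 0 in young thus says little about regions called more often in post libraries. Fisher's exact test without weights again passed 0 of all regions in each form and says nothing about the Hox regions. The fits with donors as pairs passed 0 Hox regions, and over all regions they passed 52 in young, 1 in old and 39 over both ages.

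In old mice the 1 region was Hoxa3 region 1, next to the 5′ end of Hoxa4. It was called in old post 1, 2 and 3 and in no old pre library, a difference of 75 points (exact p = 0.0287, adjusted p = 0.589, p = 0.0642 with donors as pairs, and p = 0.143 by Fisher's exact test without weights). In young mice 3 of 4 post libraries called the same region, against 1 of 4 pre libraries.

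Over both ages Hoxc4 region 36 had calls in 1 of 8 post libraries, against 3 of 8 pre libraries, a difference of -25 points (exact p = 0.00877, adjusted p = 0.335). The pre libraries that called it, old pre 1 and 2 and young pre 1, had the longest lists of that stage. Hoxc6 region 35 had calls in 8 of 8 post libraries, against 4 of 8 pre libraries, a difference of 50 points (exact p = 0.0379, adjusted p = 0.710). The pre libraries without it were old pre 3 and 4 and young pre 3 and 4, which include both short lists of that stage. With donors as pairs the exact p was 0.145 for Hoxc4 region 36 and 1 for Hoxc6 region 35. By Fisher's exact test without weights it was 0.569 for Hoxc4 region 36 and 0.0769 for Hoxc6 region 35, so neither p lay under 0.05 without the weights. In the same direction as Hoxc6 region 35, Hoxa3 region 1 and Hoxd3 region 38 were called in 6 of 8 post libraries each, against 1 of 8 and 2 of 8 pre libraries, and Hoxb1 region 32 in 5 of 8 post and 1 of 8 pre libraries. None of the last 3 had an unadjusted p under 0.05 over both ages.

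In young, 29 Hox regions were called more often in post and 3 in pre libraries, with a median difference of 25 points for Hox and for all regions. In old, 13 were called more often in post and 9 in pre libraries, with a median of 0 in both sets. Over both ages the numbers were 27 in post and 4 in pre libraries, with a median of 25 in both. Of the 38 regions, 26 were called in all 4 young post libraries (68.4%), against 79.9% of all regions, and 12 in all 4 old post libraries (31.6%), against 38.2%. Only 4 were called in all 4 old pre libraries (10.5%, against 15.8% of all) and 5 in all 4 young pre libraries (13.2%, against 26.6%).

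To set the clusters beside regions that are called as often, each library was given a score per cluster: the share of the cluster's regions it called minus the share it called among all regions with the same total number of calls, in percentage points. The scores of a cluster add up to 0 over the libraries, so they are relative, and no p-value is given for them. In Hoxa, the calls were 34 of 48 possible in old post, 39 in young post, 30 in old pre and 34 in young pre libraries. The Hoxa scores were -1.53 ± 4.31 in old post, -5.92 ± 4.14 in young post, -0.171 ± 4.21 in old pre and 7.62 ± 7.96 in young pre libraries (SD, n = 4 each). In Hoxb the calls were 40 of 84 in old post, 73 in young post, 40 in old pre and 38 in young pre libraries. The Hoxb scores were -9.36 ± 6.03 in old post, 4.57 ± 10.3 in young post, 1.54 ± 5.61 in old pre and 3.25 ± 5.05 in young pre.

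The Hoxc calls were 7 of 12 possible in old post, 8 in young post, 6 in old pre and 5 in young pre libraries. The Hoxc scores were 6.48 ± 23.4 in old post, -19.1 ± 2.87 in young post, 10.1 ± 18.9 in old pre and 2.50 ± 15.9 in young pre libraries. The Hoxd calls were 3 of 8 in old post, 4 in young post, 2 in old pre and 2 in young pre libraries. The Hoxd scores were 7.13 ± 21.4 in old post, -16.8 ± 39.7 in young post, -0.0241 ± 32.0 in old pre and 9.73 ± 31.1 in young pre libraries. In both clusters most of these means lie within 1 SD of 0, the exception being young post in Hoxc.

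Old minus young over both stages came to -1.70 points for Hoxa, -7.82 for Hoxb, 16.6 for Hoxc and 7.11 for Hoxd, and the libraries of both ages overlapped in every cluster. The Hoxb scores ranged from -14.6 to 7.87 in old and from -5.37 to 16.2 in young libraries. All 4 old post libraries had a Hoxb score below 0, from -14.6 to -1.41, whereas young post libraries ran from -5.37 to 16.2. With lists shortened to the third shortest the Hoxb difference was 1.59 points, of the other sign.

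Post minus pre over both ages came to -7.45 points for Hoxa, -4.79 for Hoxb, -12.6 for Hoxc and -9.71 for Hoxd. In young the Hoxa scores did not overlap, from -11.7 to -1.82 in post and from -0.855 to 18.3 in pre libraries. The young post minus pre difference in Hoxa was -13.5 points, and it was -7.86 without young pre 1, -4.42 with lists shortened to the third shortest, 20.2 with the shortest and 10.4 as plain shares. In old the Hoxa scores overlapped, from -6.49 to 3.98 in post and from -4.75 to 5.41 in pre libraries. The young Hoxc scores did not overlap either, from -22.1 to -15.4 in post and from -8.73 to 25.7 in pre libraries, but Hoxc rests on 3 regions, and each young post library called the same number, 2. The young Hoxc difference was -21.6 points, and -9.38 without young pre 1. The signs of the 4 differences over both ages were opposite as plain shares of regions called, which take no account of list length. As such shares, post minus pre was 9.375 points for Hoxa, 20.8 for Hoxb, 16.7 for Hoxc and 18.75 for Hoxd. The Hoxb difference kept its sign with shortened lists, at -8.94 points for the third shortest and -12.5 for the shortest. Without young pre 1 the Hoxa difference over both ages was -3.38 points and that of Hoxd 3.09, of the other sign. With lists shortened to the shortest the Hoxa difference was 7.38 points, and with regions within 10 kb of a gene alone the Hoxc difference was 5.71.

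**Figure D5:**
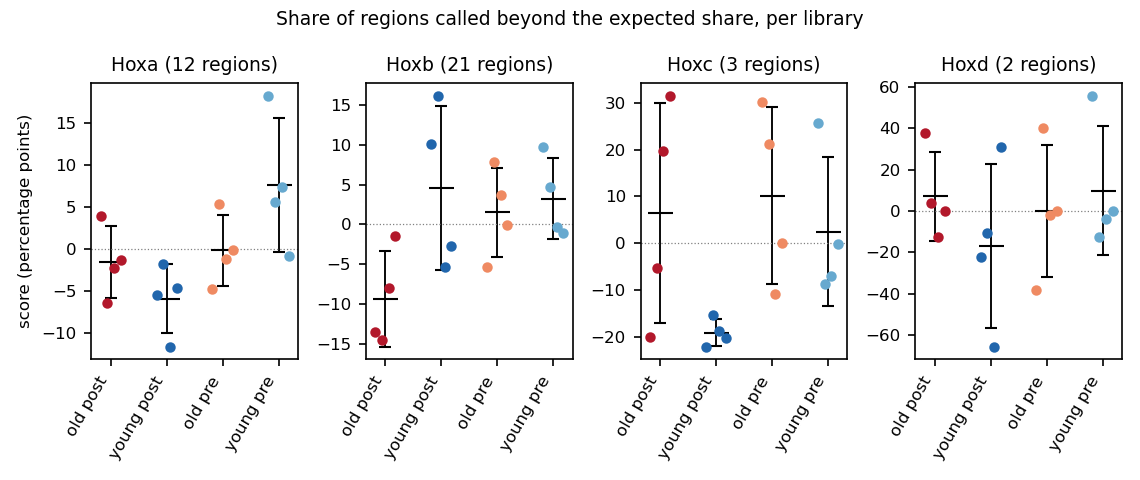
Cluster scores (y axis, percentage points; share of the cluster's regions called minus the share expected from regions called in as many libraries) by group (x axis) for Hoxa, Hoxb, Hoxc and Hoxd; points are libraries, dashes are means and bars are SDs over 4 libraries. The y scales differ between panels, and the spread widens to SDs of 21.4 to 39.7 points in Hoxd, which has 2 regions.

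Genes that act with or on the Hox genes were counted from lists of textbook membership. The Hox cofactors of the TALE homeodomain family had regions at 8 of 9 genes (44 regions), activators such as Kmt2a and Men1 at 14 of 16 genes (38 regions), and Polycomb and boundary genes such as Ezh2 and Ctcf at 17 of 17 genes (50 regions). Of the activator regions tested over all 16 libraries, 0 of 12 passed and of the Polycomb and boundary regions 0 of 19, in either direction and in both comparisons. Of all 15182 regions tested, 0.27% passed in old against young and 0.402% in post against pre. A 0 among so few is near those shares and does not set these genes apart. The share of all genes with a region is not given here.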

How the data were processed

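The data were 16 ATAC-seq peak lists of sorted HSCs, 4 per group, each called separately. Per the submitters' processing notes, tools included FastQC, MultiQC, Trim Galore, cutadapt and the peak caller Genrich, on build mm10; ChIPseeker, featureCounts and DESeq2 are also named, and what is not given in the sources used here includes the aligner, tool versions and parameters. The deposited score used here is the area of a peak in the caller's significance curve; it is not normalised between libraries, so it ranks peaks only within a list. Peaks of chromosomes 1 to 19 and X that overlapped by at least 1 bp were merged, regions called in at least 2 libraries kept, and positions given 1-based. A RefSeq gene table of GRCm38 gave the nearest protein-coding gene within 100 kb of the median summit. Hox members and lists were chosen with earlier results of these data known.

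The test of a single region was exact, conditional on its number of calls and two-sided, and took into account how readily each library calls regions (log odds from a Rasch model refitted in the libraries compared). Benjamini-Hochberg adjustment ran over every region with 4 to 12 calls in 16 libraries (3 to 5 calls in 8), with a threshold of 0.05; tests over 16 libraries count a donor's post and pre libraries as independent. The test was checked on calls simulated independently from the model it assumes. That check does not cover dependence through donors or transposition days. Regions given in full were, per cluster, those called in all 16 libraries, up to 8 called in 4 to 12 with the largest differences, any past the threshold, and the one with the largest median area percentile; the rest were added as counts or after their values were seen. By the series design, post and pre libraries of one age and number share donors, so donors paired them; the correlation of their deviations from the group means ran from -0.350 to 0.277. Alternatives are given in the closing section. Python 3.11.15, numpy 2.4.6, pandas 2.3.3, scipy 1.17.1 and matplotlib 3.10.9 were used. Reads per library are unknown, so no counting interval is given. Some results for genes outside the Hox clusters, among them the tests of the cofactor regions, are not reported here.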

Additional observations from a re-analysis of the deposited data

Results flagged for a closer look

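In groups of 4 libraries, the cluster scores and the area percentiles of the regions called in all 16 libraries were checked for a single library far from the other 3 (32 groups, where chance flags about 1 in 20). No cluster score stood apart, and 6 area percentiles did, each in old pre 4 or young pre 4, the shortest lists with 5711 and 9636 peaks. In old pre 4, Hoxa7 region 5 stood at the 11.9th percentile, Hoxa9 region 6 at 66.3 and Hoxb3 region 26 at 24.9. In young pre 4, Hoxa3 region 3 stood at the 76.6th percentile, Hoxa9 region 6 at 75.7 and Hoxb3 region 26 at 40.5. Every other library of the same group had a higher percentile for the same region.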

How the results depend on the processing

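The count of Hox regions past the adjusted threshold stayed at 0 in all 6 comparisons under each of the 153 values computed over 26 alternatives, including the replicate block and leaving out each library in turn. A 0 says nothing where no other region passed: Fisher's exact test passed 0 of all regions in each comparison, and old against young before transplantation passed 0 of all regions under every alternative run. In the other main tests at most 0.744% of all regions passed, and 7 to 17 Hox regions were tested. A 0 among so few is near that share and does not set Hox regions apart. The 153 values reuse the same libraries. With the replicate block (donor pairs for post against pre, libraries of the same number for old against young) 0 Hox regions passed and 0 had an unadjusted exact p under 0.05. Old and young libraries of one number share no donor, with correlations of -0.0681 to 0.504.

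Old minus young over both stages moved by more than the pooled SD between libraries under 3 settings. As raw shares it was -9.375 points for Hoxa and -18.5 for Hoxb, with peak areas of at least 400 it was 36.2 for Hoxc, and at the length of the third shortest list it was 1.59 for Hoxb. Post minus pre moved as raw shares to 9.375 points for Hoxa, 20.8 for Hoxb and 16.7 for Hoxc. It was -0.224 for Hoxa with areas of at least 400, -1.41 for Hoxa with regions called in at least 4 libraries, 7.38 for Hoxa and -12.5 for Hoxb with the shortest list length, 49.6 for Hoxc with the third shortest and 5.71 for Hoxc within 10 kb of a gene. The causes were not tested. Settings that left a cluster with no region gave no value. Leaving out 1 library moved none of these 8 differences by more than the pooled SD, but 6 of them changed sign or moved by over 1.5 times. Old minus young for Hoxa (-1.70) was -2.64 without old pre 2, -0.764, -0.664 and -0.510 without young pre 1, 2 and 3, -1.01 without old post 2 and -3.26 without young post 3. For Hoxd (7.11) it was 14.2 and 0.230 without old pre 1 and 2, 13.1 without young pre 1, 3.96 and 10.8 without old post 1 and 3, and -0.562 without young post 3. Post minus pre for Hoxa (-7.45) was -3.38 without young pre 1, and for Hoxb (-4.79) -2.36 and -2.78 without old post 1 and 2. For Hoxc (-12.6) it was -6.54 and -8.15 without old pre 1 and 2, -6.85 without young pre 1 and -20.3 without old post 4. For Hoxd (-9.71) it was -17.1 and -1.85 without old pre 1 and 2, 3.09 without young pre 1, -16.3 without old post 1 and -1.79 without young post 3. Hoxb and Hoxc old minus young moved by less. Hoxc and Hoxd, with 3 and 2 regions, limit what a score can show.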
